A study of Mus musculus with 2 samples.

Results

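The genes described here are 7 Toll-like receptors (Tlr1, Tlr2, Tlr3, Tlr4, Tlr5, Tlr7 and Tlr9), the endotoxin co-receptors Cd14 and Ly96, and the shared adaptor Myd88. They were chosen by name, with earlier results of these data known, and all 10 were found by gene identifier among the 43346 mouse genes of the gene files. The samples were whole urinary bladders of 2 newborn pups of the mouse strain B6NCrl, both at postnatal age 0 days and both from 1 pregnant female, with no treatment and no recorded sex. Each pup gave 1 total RNA-seq library from 10 ng of RNA longer than 200 nt, so the pups are the replicates (n = 2) of a single group. No condition was contrasted, and the design therefore allows a description of levels and of the difference between littermates, without a p-value.

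Toll-like receptors are membrane proteins that sense conserved molecules of microbes. Those at the cell surface sense bacterial lipoproteins (Tlr2 with Tlr1 or Tlr6), lipopolysaccharide, also called endotoxin (Tlr4 with Ly96 and Cd14), and flagellin (Tlr5), and those in endosomes sense nucleic acids (Tlr3, Tlr7 and Tlr9). All of them except Tlr3 can signal through Myd88 to NF-kB, a transcription factor that switches on cytokine and chemokine genes. In the bladder, Tlr4 and Tlr5 are best known for their part in the response to bacteria that infect the urinary tract.

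The libraries held 43653524 and 32564212 expected counts on mouse genes in pup 1 and pup 2, a ratio of 1.34. An expected count is the estimated number of reads of a gene, and TPM, a transcript abundance scaled to a fixed total, divides it by length and depth, so levels of different genes are compared in TPM. The labelled tissue carried its markers, since all 8 superficial urothelium markers (led by Upk3a and Upk1b), all 6 basal urothelium markers (led by Krt15 and Krt5), all 7 smooth muscle markers (led by Actg2 and Acta2) and all 7 fibroblast markers (led by Col3a1 and Col1a1) exceeded 1 TPM in both pups. Of all protein-coding genes, 58.5% reached 1 TPM in both pups. In bulk tissue, fewer cells of a type and less RNA per cell cannot be told apart.

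Sequences around the start sites of 2 receptor genes are shown because both hold matches to the NF-kB motif while the RNA of 1 was higher and that of the other lower in pup 2. They come from the RefSeq table of GRCm38.p6, the assembly also called mm10, and run from 250 bases before to 50 bases after the start, with bases of a match in capitals. The Tlr2 window lies at chr3:83841559-83841858 on the minus strand and the Tlr3 window at chr8:45410331-45410630 on the minus strand.
Tlr2: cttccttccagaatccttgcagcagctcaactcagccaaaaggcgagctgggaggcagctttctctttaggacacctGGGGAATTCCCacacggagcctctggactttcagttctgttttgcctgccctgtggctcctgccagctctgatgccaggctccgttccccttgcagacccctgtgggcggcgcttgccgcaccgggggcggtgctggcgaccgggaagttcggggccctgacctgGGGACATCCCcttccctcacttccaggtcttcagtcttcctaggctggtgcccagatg
Tlr3: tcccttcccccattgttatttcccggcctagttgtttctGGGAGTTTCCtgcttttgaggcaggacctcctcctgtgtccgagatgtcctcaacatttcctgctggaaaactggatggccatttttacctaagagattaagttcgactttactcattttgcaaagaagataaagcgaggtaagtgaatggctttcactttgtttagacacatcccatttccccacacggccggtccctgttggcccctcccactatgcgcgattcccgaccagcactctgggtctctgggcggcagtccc
The Tlr2 window held overlapping matches that begin at -173 and -172 and another at -8, and the Tlr3 window held a match at -211. The motif searched was GG, 2 purines, any 2 bases, 2 pyrimidines and CC. It is its own reverse complement, so each match is on both strands by definition. Of all 32851 windows of this length in the table, 11.2% held the motif. The core of the PU.1 box, GAGGAA, was also searched on both strands and was found in 28.3% of all windows. Among members it occurred in 1 of the windows of Tlr1, at -23, and at -112 and 13 in that of Tlr9. Windows were available for 6 of the 10 genes, with 7 start sites in all. Tlr4, Tlr7, Cd14 and Ly96 had no window and were not searched for either motif. A match describes letters and says nothing of binding.

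All 10 genes lay above the detection limit of 3 counts in both pups, and 7 of 10 reached 1 TPM in both. Among all 21474 protein-coding genes 58.5% reached 1 TPM in both pups, so the share among the receptors and their partners was near that background. The genes below 1 TPM in a pup were Tlr7, Tlr1 and Tlr9. The summed level of the 10 genes was 76.3 TPM in pup 1 and 143 TPM in pup 2, of which Cd14 alone gave 17.1% and 46.6%. Without Cd14 the sums were 63.3 and 76.3 TPM. The 7 Toll-like receptors together held 15.7 and 19.4 TPM, less than Myd88 alone in either pup.

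**Figure D1:**
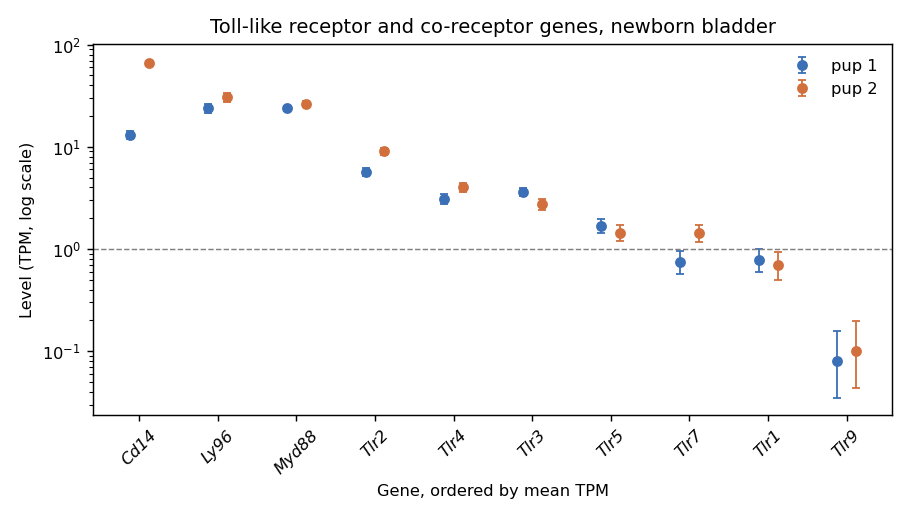
Level of each of the 10 genes in pup 1 and pup 2 in TPM on a log axis, ordered by mean, with bars for the exact Poisson interval of the count at 95% and a dashed line at 1 TPM. Cd14, Ly96 and Myd88 lay above 10 TPM in both pups, Tlr9 lay near 0.1 TPM, and Cd14 showed the widest gap between the pups, 13.0 against 66.7 TPM.

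By mean TPM the order was Cd14, Ly96, Myd88, Tlr2, Tlr4, Tlr3, Tlr5, Tlr7, Tlr1 and Tlr9, spanning 443-fold. Neighbours in this order counted as apart only when both pups of one gene exceeded both pups of the next. On that basis the leading 3 genes could not be ordered among themselves, because Cd14 was the lowest of them in pup 1 and the highest in pup 2. All 3 were apart from Tlr2, and Tlr2 was apart from Tlr4. Tlr4 and Tlr3 changed places between the pups, as did Tlr7 and Tlr1. Tlr5 was apart from Tlr7 by the narrow margin of 1.44 against 1.42 TPM. That call was lost with the authors' posterior mean TPM, in which Tlr5 was at 1.86 and 1.65 and Tlr7 at 1.31 and 2.04, above 1 TPM in both pups. Of that Tlr7 value in pup 1, the full-length transcript Tlr7-201 held 26.4%, and Tlr7-206, a short non-coding transcript with 1 count, held 30.9%. Every gene above Tlr9 was apart from it.

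Cd14, the surface protein that hands lipopolysaccharide to the Tlr4 complex, lies on chromosome 18 from 36725067 to 36726798 (mm10, minus strand). It had 574 counts in pup 1 and 2350 in pup 2, or 13.0 and 66.7 TPM (39.9 ± 38.0 TPM, SD, n = 2). The pups therefore stood far apart at this gene. After TMM scaling, which sets both libraries to a common depth, the level in pup 2 was 5.42 times that in pup 1, a log2 ratio of 2.44 with an exact Clopper-Pearson interval at 95% of 2.31 to 2.57. These intervals cover counting error only, because each pup gave 1 library. PCR copies of a molecule were not told apart, so the intervals can be too narrow even for counting error. Of 12733 genes with a mean count of 100 or more, Cd14 was number 40 from the top by this ratio, and 0.353% of them differed at least as much in either direction.

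By distance in log2 TPM over the 2 pups, the protein-coding genes nearest to Cd14 were Cd53, a leukocyte tetraspanin, Cfp, the complement regulator properdin, and Ccl9, a chemokine. Cd53 had 12.3 and 55.2 TPM at a distance of 0.28, Cfp had 15.5 and 60.1 TPM at 0.29, and Ccl9 had 16.9 and 79.7 TPM at 0.46. With 2 samples this likeness rests on a pair of values per gene.

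Ly96, which encodes MD-2, the protein that holds lipopolysaccharide in the Tlr4 complex, was at 23.8 TPM in pup 1 and 30.6 TPM in pup 2 on 381 and 388 counts. Its position is chromosome 1 from 16688051 to 16709611, plus strand. The log2 ratio was 0.43 with an interval of 0.22 to 0.64. Tlr4, the signalling receptor of the complex, on chromosome 4 from 66827584 to 66930284, plus strand, was lower, at 3.08 and 4.00 TPM on 336 and 376 counts. Its log2 ratio was 0.57, with an interval of 0.35 to 0.78.

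The co-receptors differed in their TPM relative to Tlr4. Ly96 stood at 7.74 times the TPM of Tlr4 in pup 1 and 7.65 times in pup 2. The TPM of Tlr4 in pup 1 includes 7.54% from the short non-coding transcript Tlr4-203, which rests on 2.82 counts and had 0 in pup 2. By scaled counts the intervals of Ly96 and Tlr4 overlapped. Cd14 stood at 4.23 times Tlr4 in pup 1 and 16.7 times in pup 2. Relative to Ly96, Cd14 was at 0.546 in pup 1 and 2.18 in pup 2. Lbp, the plasma protein that carries lipopolysaccharide to Cd14, was at 26.6 and 27.2 TPM with a log2 ratio of 0.32.

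Tlr2, the shared chain of the lipoprotein receptors, lies on chromosome 3 from 83836272 to 83841767, minus strand. It was the highest of the 7 Toll-like receptors in both pups, at 5.66 TPM in pup 1 and 9.04 TPM in pup 2 on 494 and 630 counts. The level in pup 2 was 1.69 times that in pup 1, a log2 ratio of 0.75 with an interval of 0.58 to 0.93. Its partner Tlr1, on chromosome 5 from 64924679 to 64933563, minus strand, had only 0.78 and 0.69 TPM on 59.7 and 41.8 counts. The log2 ratio of Tlr1 was -0.11 and its interval of -0.72 to 0.48 spans equal levels. The other partner, Tlr6, was at 0.90 and 0.92 TPM. Tlr2 was thus at 7.26 times Tlr1 in pup 1 and 13.1 times in pup 2, and at 6.29 and 9.83 times Tlr6.

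Tlr1 and Tlr6 are neighbours, 18467 bases apart, and they share long stretches of coding sequence, so part of their reads cannot be assigned by sequence alone. Over their aligned coding sequences 74.9% of positions were identical, against 50.1% to 54.8% in the other 27 pairs of the 8 receptors compared. Identity was 64.7% before the longest identical run and 89.9% after it. The longest run, 229 bases, is shown with 30 bases on each side as it reads in Tlr1, at chr5:64925507-64925795 on the minus strand (mm10, the single coding exon), from GENCODE M21. Bases that differ in Tlr6 are in capitals.
Tlr1: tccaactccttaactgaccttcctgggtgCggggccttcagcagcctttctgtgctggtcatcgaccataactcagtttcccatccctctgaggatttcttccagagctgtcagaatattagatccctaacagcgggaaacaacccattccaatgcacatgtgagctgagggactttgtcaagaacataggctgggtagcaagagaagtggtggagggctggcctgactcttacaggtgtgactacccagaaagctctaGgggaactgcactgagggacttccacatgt
Counted from 1 at the left end, Tlr6 differs by C30T and G260A, at chr5:64953798-64954086. The authors' estimator gave the count of Tlr1 a posterior SD of 1.51 in pup 1 and 1.54 in pup 2, which is 2.52% and 3.68% of the count. With the counts of both genes summed, the log2 ratio was 0.02 with an interval of -0.38 to 0.41. A difference in Tlr1 between the pups was not detectable at this depth.

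Tlr5, the flagellin receptor, on chromosome 1 from 182954788 to 182976044, plus strand, had 158 and 111 counts. That corresponds to 1.68 TPM in pup 1 and 1.44 TPM in pup 2 (1.56 ± 0.170 TPM). The log2 ratio was -0.11 and the interval of -0.47 to 0.25 included equal levels.

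Among the endosomal receptors, Tlr3 was highest and went the other way from most of the genes. Tlr3, the receptor for double-stranded RNA, which signals through Ticam1 (TRIF), lies on chromosome 8 from 45395665 to 45411080, minus strand. It had 453 counts in pup 1 and 275 in pup 2, or 3.64 and 2.73 TPM. The log2 ratio was -0.32 with an interval of -0.54 to -0.10, so pup 1 was 1.24-fold higher. Its adaptor Ticam1 was at 2.88 and 3.09 TPM. An antisense gene of the newer annotation, Gm45542, shares 381 nt of exon with Tlr3 and was not analysed here.

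Tlr7, the receptor for single-stranded RNA, on chromosome X from 167304929 to 167330558, minus strand, had 61 counts in pup 1 and 103 in pup 2. Its level in pup 2 was 2.23 times that in pup 1 by counts, with a log2 ratio of 1.16 and an interval of 0.69 to 1.64. In TPM it had 0.75 and 1.42, a log2 ratio of 0.92 that lies under 2-fold. These TPM values are raised by a 261 nt non-coding transcript with 1 count in each pup, which supplied 27.5% and 18.2% of them. The full-length transcript Tlr7-201 alone had 0.55 and 1.16 TPM. Its neighbour on chromosome X, Tlr8, had 22 and 30 counts.

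Tlr9, the receptor for unmethylated CpG DNA, on chromosome 9 from 106222598 to 106226883, plus strand, was the lowest, with 8 counts in each pup. Its 0.08 and 0.10 TPM had exact Poisson intervals of 0.035 to 0.158 and 0.043 to 0.197. A count of 3 would correspond to 0.030 and 0.037 TPM, so Tlr9 was only just detectable at this depth. The log2 ratio of 0.40 had an interval from -1.21 to 2.02, and a difference between the pups was not detectable.

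Myd88, the adaptor that couples the receptors to the Irak kinases, lies on chromosome 9 from 119335934 to 119341411, minus strand. It differed less between the pups than Cd14, with 23.8 TPM in pup 1 and 26.3 TPM in pup 2 (25.1 ± 1.77 TPM) on 1334 and 1175 counts. The log2 ratio was 0.22 with an interval of 0.11 to 0.34. Acaa1a, a peroxisomal thiolase on the opposite strand, overlaps 290 of its 2576 exon bases and had 4103 and 3175 counts. Since strand use is not given in the sources used here, reads in that overlap cannot be told apart. Of the other adaptors, Tirap, which bridges Myd88 to Tlr2 and Tlr4, was at 8.66 and 8.30 TPM, and Ticam2, which bridges Ticam1 to Tlr4, was at 1.10 and 1.89 TPM.

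Across the genes, most were higher in pup 2. Of the 9 genes with a mean count of 20 or more, 6 were higher in pup 2 and 3 lower (47.3% of all genes were higher), with a median log2 ratio of 0.43, against -0.01 over all 15605 genes at that depth. Counting intervals excluded equal levels on the higher side for 6 of the 9 genes and on the lower side for 1, Tlr3. Over all genes the shares were 21.3% and 26%. Among the 7 genes with a mean count of 100 or more, Cd14 alone was at least 2-fold higher in pup 2, where 1.7% of all genes were, and 0 were 2-fold lower, where 0.283% of all genes were. At a mean count of 20 or more, Tlr7 joined it, making 2 of 9, against 2.85% of all genes, and 0 of 9 were 2-fold lower, against 0.865%. By a fold of 1.5, 2 of 7 genes (Cd14 and Tlr2) were higher, against 3.25% of all genes, and 0 were lower, against 1.66%. Without Cd14 the median log2 ratio was 0.33.

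**Figure D2:**
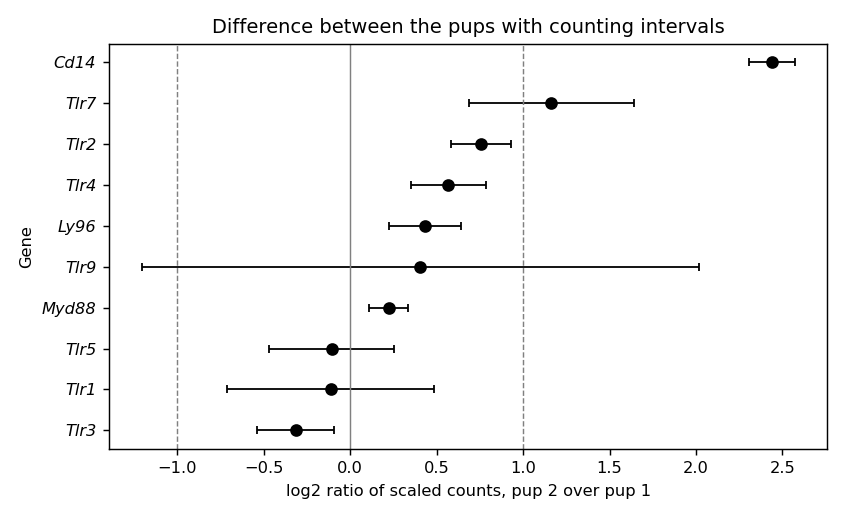
The log2 ratio of scaled counts, pup 2 over pup 1, of each gene, with bars for the exact Clopper-Pearson interval of counting error at 95% and dashed lines at a 2-fold difference. Cd14 at 2.44 lay well past the line, Tlr7 at 1.16 had an interval that crossed it, and Tlr3 at -0.32 had its whole interval below 0.

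**Figure D3:**
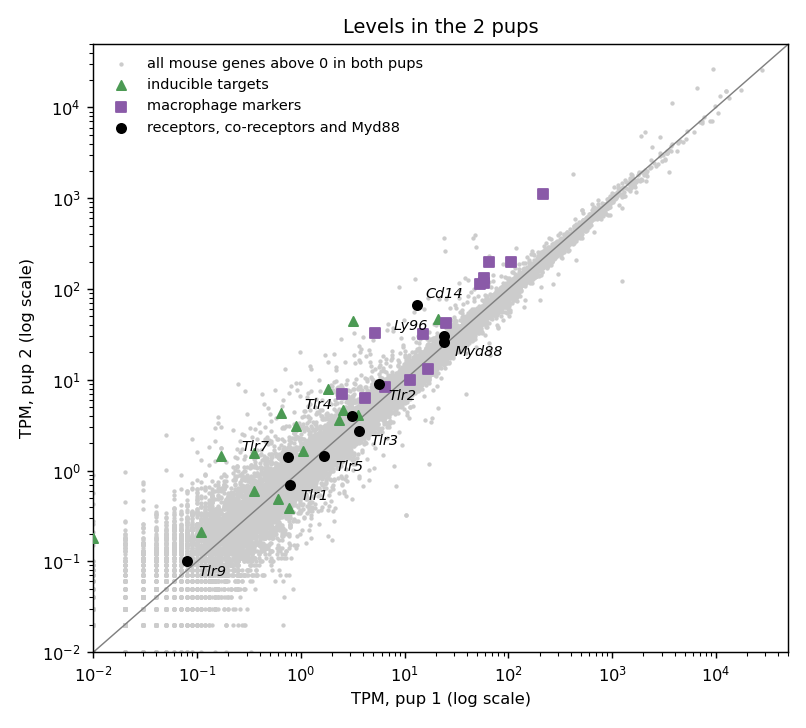
TPM in pup 1 against pup 2 on log axes for mouse genes above 0 in both (grey), with the 10 genes (black circles), inducible targets of the pathway (green triangles) and macrophage markers (purple squares), and the line of equality. Cd14 at 13.0 and 66.7 TPM lay above the line among macrophage markers and inducible targets, whereas Myd88 at 23.8 and 26.3 TPM lay close to it.

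The rest of the pathway was described from 7 lists of 67 genes, chosen with earlier results of these data known. Of these, 47 reached 1 TPM in both pups, against 58.5% of all protein-coding genes. At a mean count of 20 or more, 41 of 58 genes were higher in pup 2, against 47.3% of all genes at that depth. Of the 58, 10 were at least 2-fold higher, against 2.85% of all genes, and 0 were 2-fold lower, against 0.865%. Their median log2 ratio was 0.17. Signalling genes were expressed almost in full and differed little. All 14 kinases, ligases and their partners exceeded 1 TPM in both pups, against the same 58.5%. They were led by Irak1 at 42.8 and 49.0 TPM, Ikbkb at 18.1 and 21.1 TPM and Chuk at 20.2 and 16.9 TPM. Their median log2 ratio was 0.01, with 7 higher, 7 lower and 0 apart by 2-fold. Of all genes with a mean count of 100 or more, 1.7% were 2-fold higher and 0.283% 2-fold lower.

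Transcription factors and inhibitors were also near equality by their medians, 0.07 and 0.15. Irf3 was at 38.6 and 38.9 TPM, the NF-kB subunit Rela at 37.1 and 32.7 TPM and Relb at 16.6 TPM in both. Irf5, a factor that acts below Myd88, was at 4.89 and 12.6 TPM with a log2 ratio of 1.40. Irf7, the interferon regulatory factor that acts below Tlr7 and Tlr9, was at 10.4 and 14.2 TPM with a log2 ratio of 0.61 and an interval of 0.42 to 0.80. Of the inhibitors, Nfkbia, which holds NF-kB in the cytoplasm, was at 49.0 and 54.2 TPM, Tollip at 32.5 and 28.5 TPM and Nfkbib at 24.4 and 25.5 TPM. Il1rl1, the receptor of interleukin 33, was at 0.86 and 2.62 TPM with a log2 ratio of 1.28.

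Receptors and helpers outside the chosen genes varied more. Tlr13, a sensor of bacterial ribosomal RNA, was the highest of the 5 remaining Toll-like receptors, with 136 counts in pup 1 and 316 in pup 2 and a log2 ratio of 1.62. Tlr12 had 45 and 50 counts, and Tlr11 had 1 and 0. Hsp90b1, the chaperone that folds Toll-like receptors and many other secreted proteins, was the most abundant helper at 295 and 231 TPM, and Cnpy3, which works with it, was at 33.4 and 32.7 TPM. Unc93b1, which carries the endosomal receptors out of the endoplasmic reticulum, was at 18.7 and 26.6 TPM with a log2 ratio of 0.58. Ly86 (MD-1), the partner of the Tlr4-like receptor Cd180, had a log2 ratio of 1.30.

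Genes known to be induced by Toll-like receptor ligands showed the widest difference of the 7 lists. Their summed level was 39.2 TPM in pup 1 and 124 TPM in pup 2. Of the 11 with a mean count of 20 or more, 10 were higher in pup 2, against 47.3% of all genes at that depth. At least 2-fold higher were 6 of the 11, against 2.85% of all genes, and the median log2 ratio was 1.25. The list was chosen with earlier results of these data known, so these shares describe it and are no independent test. Saa3, an acute-phase protein, had 41 counts in pup 1 and 454 in pup 2, a log2 ratio of 3.87. Ccl2, the monocyte chemokine, was at 20.7 and 46.2 TPM, and Lcn2, which sequesters bacterial siderophores, at 1.84 and 7.99 TPM. The neutrophil chemokines Cxcl1 and Cxcl2 had 23 and 18.4 counts in pup 1 and 63 and 99.3 in pup 2, and Il1b had 13 and 43. Nos2 had 73 and 47 counts, with an interval of -0.79 to 0.32 on the log2 scale that included equal levels. Below that depth, Ccl5 had 10 and 4 counts, and its interval of -3.04 to 0.88 also included them. Ifnb1 had 0 counts in both pups and Il12b had 1 and 0.

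**Figure D4:**
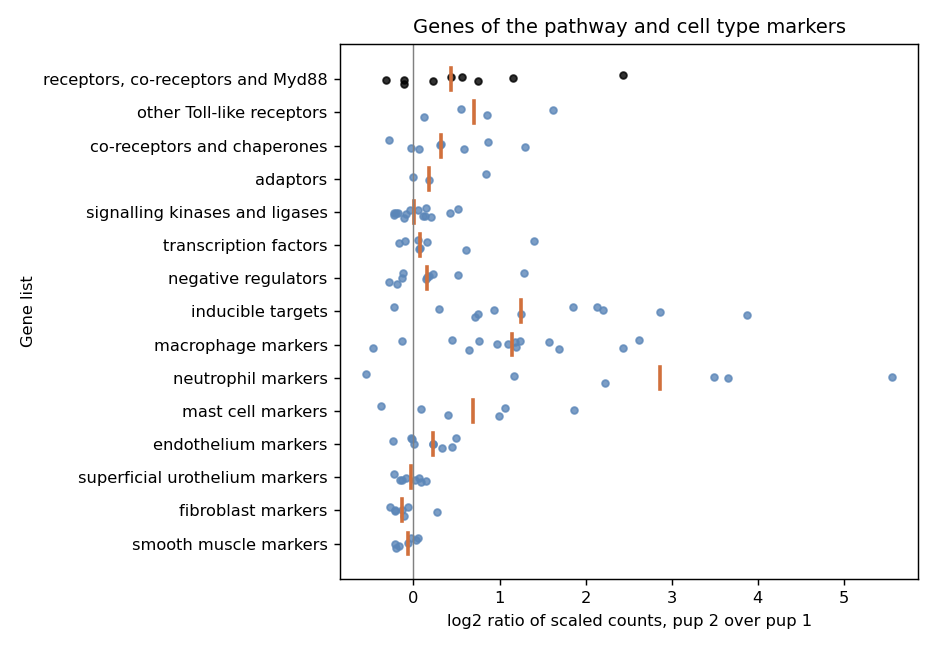
The log2 ratio of scaled counts, pup 2 over pup 1, for each gene with a mean count of 20 or more in 15 gene lists (points) with the list median (orange bar). Medians lay at 0.43 for the receptors, co-receptors and Myd88, 1.25 for inducible targets, 1.14 for macrophage markers and 2.86 for neutrophil markers. They lay near 0 for signalling genes, superficial urothelium, fibroblasts and smooth muscle. Lymphocyte, dendritic cell, basal urothelium, erythroid (median 1.45) and liver (median -2.03) markers are not shown.

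Macrophage and neutrophil markers, like Cd14 and Tlr2, were mostly higher in pup 2. Of 14 macrophage markers, led by Lyz2 and C1qb, 12 were higher in pup 2 and 8 by at least 2-fold. Of all genes with a mean count of 20 or more, 47.3% were higher and 2.85% at least 2-fold higher. The summed level of the macrophage markers was 644 and 2017.5 TPM, and none was at 0. Of 6 neutrophil markers with a mean count of 20 or more, led by S100a8 and S100a9, 5 were at least 2-fold higher, against the same 2.85%. Mpo was at 29 and 15 counts. The list of 9 summed to 37.65 and 380.8 TPM, with Ly6g at 0 in both pups and Elane at 3 counts in each. Mast cell markers, led by Tpsb2 and Cma1, had a median log2 ratio of 0.70 and endothelial markers, led by Egfl7 and Cldn5, 0.22, whereas those of superficial urothelium, fibroblasts and smooth muscle had -0.03, -0.14 and -0.06. The 8 lymphocyte markers, led by Nkg7 and Cd79a, summed to 1.32 and 1.36 TPM, with Cd8a at 0 in both pups. The 2 dendritic cell markers with a mean count of 20 or more, Bst2 and Zbtb46, had a median of 0.03, with 1 higher and 1 lower. Erythroid markers, led by Hba-a2 and Hbb-bs, had a median of 1.45 and liver markers, led by Apoa1 and Ahsg, -2.03. The marker lists were also chosen with earlier results of these data known. The part of these cells in the values of the 10 genes was not tested.

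Set beside the macrophage markers listed here, Cd14 differed between the pups by more than their median and Tlr7 by about as much. The other 8 genes differed by less or in the other direction, but the interval of Tlr9, -1.21 to 2.02, included that median. Cd14 equalled 2.02% of the summed macrophage TPM in pup 1 and 3.31% in pup 2, and its log2 ratio lay 1.30 above the median of the markers, with 1 of 14 markers, Itgam, having a larger ratio. The macrophage markers themselves ranged from -0.47 (Mrc1) to 2.62 (Itgam), and the median of the neutrophil markers, 2.86, lay above Cd14. Whether the RNA of each marker came from macrophages alone was not tested, so each placing holds for this list only. Tlr7 lay 0.02 above the macrophage median. Tlr2 lay below it, with a difference of -0.39, as did Tlr4 at -0.57, Ly96 at -0.71 and Myd88 at -0.92. Tlr3 was farthest below, at -1.46. Relative to the summed markers, Tlr2 stood at 0.879% and 0.448% and Tlr3 at 0.565% and 0.135%. Lyz2 gave much of that sum in pup 2. Without Lyz2 and Mrc1, Cd14 equalled 3.17% and 7.42% of the sum, Tlr2 1.38% and 1.01% and Tlr3 0.886% and 0.304%. The median of the markers stayed at 1.14 by construction, because Mrc1 lay below it and Lyz2 above it.

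At transcript level, 4 of the 10 genes (Cd14, Tlr1, Tlr2 and Tlr9) had a single annotated transcript, and in all 10 the leading transcript was the same in both pups. Ly96-201, Myd88-201, Tlr4-201 and Tlr7-201 held at least 95.0% of their gene's counts in each pup. Tlr3-202, an alternative coding transcript, had 79.2 counts in pup 1 and 16.1 in pup 2, but the posterior SD of these estimates was 30.2 and 15.0 counts. Tlr5 was divided most, with Tlr5-201 at 68.1% and 78.0% of counts and Tlr5-202 taking most of the rest. The leading transcript of Tlr7 changed between pups when posterior mean shares of TPM were used in place of the deposited maximum-likelihood shares. In pup 1 the lead then went to Tlr7-206, the 261 nt non-coding transcript with 1 count in each pup, at 30.9%. By posterior mean count Tlr7-201 led in both pups, at 37.7 and 84.3.

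**Figure D5:**
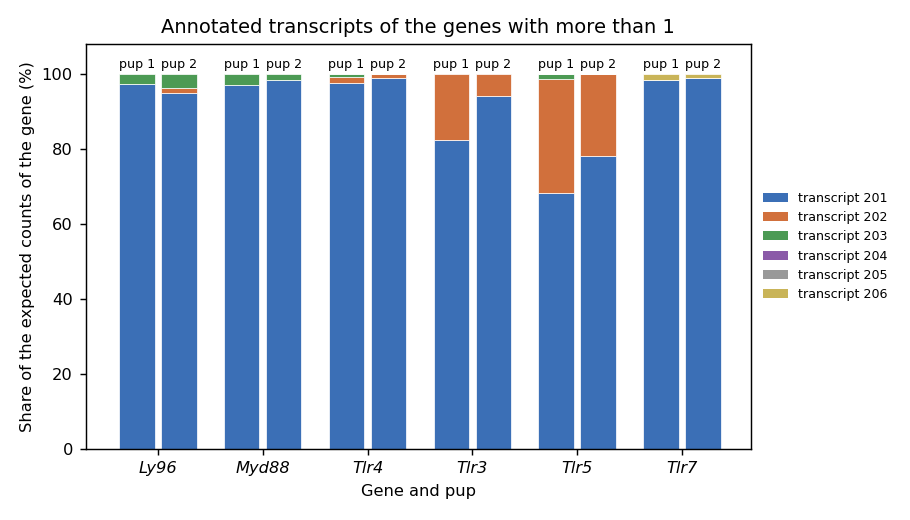
Share of each gene's expected counts assigned to its annotated transcripts (numbered as in GENCODE, colours) in pup 1 and pup 2, for the 6 genes with more than 1 transcript. Transcript 201 led throughout, with the lowest share in Tlr5, 68.1% in pup 1.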

How the data were processed

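Total RNA-seq was available for 2 newborn bladders. The deposited files have the RSEM layout, on mm10 with GENCODE M4 per the text listing deposited beside them. Aligner, estimator version and strand setting were not given in the sources used here. Expected counts, as the authors deposited them, are estimated reads with multi-mapped reads divided among targets, the deposited TPM and FPKM values are scaled for length and depth, and the deposited transcript shares are percent of the gene. The deposited posterior SD of a count and TPM bounds are of other kinds and only the SD was used. Total counts differed by 1.34-fold, and the precision of each value follows its own count.

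Identifiers were matched to GENCODE M21 (42462 of 43346 genes), and 26345 entries that are no mouse gene were left out. Rounded expected counts were scaled by TMM in edgeR 4.0.16 (R 4.3.3), used for scaling only, and by DESeq2 1.42.0 size factors as an alternative. The log2 ratio of pup 2 over pup 1 took a count of 0 as 3. Calls of 2-fold needed a mean count of 100, and medians one of 20. A single library per pup leaves nothing to test. Littermate samples measure the spread between these pups only. The steps were tested on simulated data. Python 3.11.15, pandas 2.3.3, scipy 1.17.1 and Biopython 1.88 were used.

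The members and lists were chosen with earlier results of these data known. Named are all members, the 3 highest genes of each pathway list, pathway list genes 2-fold apart or at 3 counts or fewer in both pups, the 2 highest of each marker list, and the 3 genes nearest in log2 TPM to Cd14, which had both the highest mean and the largest ratio. Other list genes named, such as Unc93b1, Irf7, Nos2, Ccl5, Tlr8, Itgam, Mpo, Elane, Ly6g and Cd8a, were chosen after their values were seen. No protein table was used, so receptors were compared by coding sequence, by global alignment, in place of the planned protein identity.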

Additional observations from a re-analysis of the deposited data

How the results depend on the processing

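Counts of members above the detection limit, at 1 TPM and with the same leading transcript stayed within 1.5-fold of the reported value under every alternative run for them, and the median log2 ratio ranged from 0.29 with 1 added to TPM to 0.45 with total count scaling. With Cd14 left out, an alternative chosen after seeing the data, the median was 0.33. The number of genes 2-fold higher in pup 2 was 1 and became 2 with a mean count of 20 or more, with no filter on low counts (Tlr7 in both cases) and with a threshold of 1.5-fold (Tlr2), each of which admits more genes by construction. Of 125 alternative values, 117 stayed within the limit set and 8 moved, among them the mean over pups of the posterior mean TPM of Tlr5 (1.75) and Tlr7 (1.68), for which the cause was not tested. This tally does not measure agreement between the pups. Each of 2 values lies within 1 SD of their mean by construction, so a level with 1 pup left out could not move. Cd14 thus counted as unmoved at 13.0 and at 66.7 TPM against a mean of 39.9 TPM. By level in pup 1 alone, 3 of 10 genes kept their rank. No scaling turned the direction of a gene, but DESeq2 and total count scaling could not have done so. They shift the log2 ratio of every gene alike, by 0.0004 and 0.02, less than the smallest ratio of a member in size (Tlr5, -0.11). Only summing Tlr1 with Tlr6, also chosen after seeing the data, changed the sign for Tlr1. No paired analysis was possible because both samples form 1 group. Depth limits Tlr9, Tlr1 and Tlr7 most.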

Other observations

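Il6 lay just under a mean count of 20 and had 5 counts in pup 1 and 34 in pup 2, a log2 ratio of 3.17 with an interval of 1.81 to 4.88. The other cytokines Tnf and Il10 had 16 and 22 counts and 4 and 6 counts, with intervals that included equal levels. Acod1, the itaconate-producing enzyme of activated macrophages, had 1 count and 11 counts. Cxcr2, the neutrophil receptor for Cxcl1 and Cxcl2, had 4 and 143 counts. Mrc1 and Aif1 were the macrophage markers lower in pup 2, at 2412 and 1315 counts and at 208 and 143 counts. Flt3, Xcr1, Clec9a and Siglech, markers of dendritic cells, had at most 9 counts in either pup, and Bst2 and Zbtb46 had 873 and 343 counts in pup 1 and 856 and 209 in pup 2. These genes were chosen after their values were seen.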
